A study of Mus musculus with 32 samples.

Results

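The genes described here were 10 mouse genes of inflammatory signalling, Il1a, Il1b, Il1rn, Tnf, Il6, Il10, Il18, Nlrp3, Casp1 and Ptgs2, among 26560 genes in the RNA table of Lin- cells and 25887 in that of CD11b+ cells. They were chosen by symbol, all 10 were present in both tables, and a binding peak was assigned to a gene when the peak's name began with that gene's Ensembl identifier. The question was whether IGF2BP3, an RNA binding protein of leukemia cells, was bound to their RNAs in MLL-Af4 transformed cells, where on each RNA, and in which of the cell types.

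Binding was measured by eCLIP, in which protein is crosslinked to RNA by ultraviolet light, precipitated with an antibody to IGF2BP3, and the attached RNA fragments are sequenced. A size-matched input library (smInput) was made from the same size range of RNA without precipitation. The Lin- cells were lineage-negative mouse bone marrow cells transduced with a retrovirus carrying MSCV-MLL-FLAG-Af4, selected with G418 and kept in IMDM with serum and added cytokines, among them IL-6, so that IL-6 protein was part of the medium. The CD11b+ cells were taken by magnetic positive selection from splenic tumors of mice with MLL-Af4 leukemia. The study names the eCLIP cells WT/MLL-Af4, with wild-type Igf2bp3. There were 6 Lin- eCLIP libraries (3 biological and 3 technical) and 4 CD11b+ libraries (2 biological and 2 technical), and the labels do not tie a technical library to a biological one, so libraries 4 to 6 of Lin- and 3 and 4 of CD11b+ were not counted as independent. RNA-seq was made from 3 wild-type and 3 Igf2bp3 knockout (I3KO) libraries of each cell type, all with MLL-Af4; the I3KO allele is a germline deletion of exon 2 that arose from leaky Vav1-Cre activity. Each RNA table gives the authors' mean over both genotypes, without a value per library.

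Inflammatory cytokines are made in response to danger signals. Their genes are transcribed through the NF-kB factors, and many of their mRNAs are held at low levels by AU-rich elements in the 3′UTR. TNF, IL-1 alpha, IL-1 beta, IL-6 and IL-18 promote inflammation, IL-10 restrains it, and the product of Il1rn blocks the IL-1 receptor. NLRP3 is the sensor of an inflammasome, the complex that activates caspase-1 (Casp1), which then cleaves the precursors of IL-1 beta and IL-18. Ptgs2 encodes the inducible cyclooxygenase of prostaglandin synthesis.

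Of the 10 genes, 3 carried an IGF2BP3 peak after the authors' filter against smInput. Tnf was bound in all 6 Lin- libraries and in none of the 4 CD11b+ libraries. Nlrp3 was bound in all 4 CD11b+ libraries and in none of the 6 Lin- libraries. Casp1 had a peak in 1 technical CD11b+ library, and Il1a, Il1b, Il1rn, Il6, Il10, Il18 and Ptgs2 had none in any library. The sequences at the peaks come first, because the position of the peaks differed between Tnf and Nlrp3.

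Tnf lies on the minus strand at chr17:35199381-35202007 (GRCm38, the build that the authors call mm10), and its main annotated transcript has 4 exons and 3 introns. Overlapping peaks of the Lin- libraries were merged, which gave 4 regions on Tnf, and each of the 4 spanned a border between an intron and an exon. At 3 of them the border was a 3′ splice site (the end of an intron), and these were the 3′ splice sites of all 3 introns. The sequences below are 30 bases of the RNA strand around each border, with exon bases in capitals and intron bases in lower case. They are shown because the peaks of Tnf lie on them. Only 3 of the printed exon 4 bases lay within a peak. At the end of exon 2 only 2 of the printed exon bases did.
Tnf, end of intron 1 and start of exon 2, chr17:35201129-35201158: aacctccttttcctacacagAAGTTCCCAA
Tnf, end of intron 2 and start of exon 3, chr17:35200896-35200925: ctttgtctcttcccctccagGATCATCTTC
Tnf, end of intron 3 and start of exon 4, chr17:35200554-35200583: atcctccccccccccctcagCAAACCACCA
Tnf, end of exon 2 and start of intron 2, chr17:35201064-35201093: CTCACACTCAgtaagtgttcccacacctct

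Nlrp3 lies on the plus strand at chr11:59541568-59566956 and its main annotated transcript has 11 exons. Casp1 lies on the plus strand at chr9:5298517-5307265. The CD11b+ peaks gave 4 regions on Nlrp3 and 1 on Casp1. In the next lines the capitals mark exon bases at the exon 6 site and, at the intron 6 and Casp1 sites, only the first occurrence of ACACAC and of GTGTGT, which both recur in lower case after it, and the sites with no capitals held none of the motifs searched. Except at the exon 6 site, where the window holds 10 exon and 20 intron bases, each window is centred on the peak's summit. At the exon 6 site only the last 2 exon bases lay within a peak.
Nlrp3, end of exon 6 and start of intron 6, chr11:59551932-59551961: AGAGACTGTGgtaagtctgtgtgtgtgtgt
Nlrp3, intron 6, chr11:59555466-59555495: gACACACagacacacatacagacagagaca
Nlrp3, intron 7, chr11:59557518-59557547: cttcttcttctttctcttcttctttctctt
Nlrp3, 3′UTR in exon 11, chr11:59566551-59566580: cctcccccgccctcctcttactcctgcccc
Casp1, intron 9, chr9:5306825-5306854: GTGTGTgtgtgtgtgtgtgcagtaggggga

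Before the values of single genes, the libraries themselves differed. The Lin- libraries held 4040 to 10042 filtered peaks with 35663 to 233695 reads in them, and the CD11b+ libraries 7085 to 10054 peaks with 91587 to 161236 reads. The smInput libraries held 217 to 1808 peaks for Lin- and 1381 to 1885 for CD11b+. In Lin- libraries 21.9% to 52.4% of peaks spanned a border between an intron and an exon of their own gene, and in CD11b+ libraries 6.41% to 9.35% did. No pair of libraries shared more than 2.22% of the smaller library's peak intervals with identical ends, so no peak list was a copy of another. Identical ends cannot show whether libraries came from the same material, as technical libraries may. The cell types were also checked against markers in the RNA tables. Kit, a receptor of progenitor cells, stood at percentile 93.6 of the Lin- table and 66.6 of the CD11b+ table by mean normalized count per kb of exon. All 4 progenitor markers lay between percentiles 93.6 and 99.1 of the Lin- table and between 63.9 and 99.1 of the CD11b+ table. Their summed means were 48098 and 39870 normalized counts, and Myb made up most of the CD11b+ sum. The means of Myb were 22676 in Lin- and 37516 in CD11b+ cells. Those of Kit, Cd34 and Flt3 went the other way, from 6974, 9052 and 9396 to 673, 1291 and 390. Myb, Cd34 and Flt3 are named here after their values were seen. Csf1r, the receptor of monocytes and macrophages, stood at percentiles 95.1 and 97.1 of the Lin- and CD11b+ tables. Itgam, which encodes CD11b itself, had a mean of only 17.0 normalized counts in CD11b+ cells and was not among the Lin- genes analysed here; 70.0% of its exonic bases are shared with Gm49368 on the same strand, so its count is uncertain. T and NK cell markers were low, with 1 of the 3 found in the Lin- table and 0 of 5 in the CD11b+ table reaching a mean of 10, while B cell markers reached it in 1 of 4 and 4 of 4 and erythroid markers in 3 of 4 and 4 of 4. All progenitor, myeloid and neutrophil markers found in a table reached a mean of 10. The summed mean of the neutrophil markers was 6250 normalized counts in the Lin- and 81720 in the CD11b+ table, that of the B cell markers 405 and 747, and that of the erythroid markers 176 and 2381. The part of other cell types in the results was not tested.

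The site at the end of Tnf intron 1 was bound in every Lin- library. The peak there held 10 reads in library 1, 8 in library 2 and 27 in library 3 of the biological libraries, and 5, 6 and 12 reads in the technical libraries 4, 5 and 6. By raw reads library 3 stood highest and the other biological libraries were close to each other. For their depth those libraries differed, at 12.1 reads per 100000 reads in filtered peaks in library 1 and 3.42 in library 2. The 6 peaks began in intron 1 between positions 35201184 and 35201188 and ended in exon 2 between 35201120 and 35201131, and merged into a region of 69 bases at chr17:35201120-35201188, with 50 bases in intron 1 and 19 in exon 2. Their summits lay 11, 19, 27, 19, 22 and 22 bases before exon 2 in libraries 1 to 6. A region found in every Lin- library was uncommon: 606 of 20089 merged Lin- regions (3.02%) were.

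The other Tnf sites came from libraries 3 and 6 alone. The region at the end of intron 2, chr17:35200892-35200956, held 14 reads in library 3 and 5 in library 6, and had 51 bases in the intron and 14 in exon 3. The region at the end of intron 3, chr17:35200561-35200614, held 7 reads in library 6, with 51 intronic and 3 exonic bases. The region at the start of intron 2, chr17:35201056-35201085, held 3 reads in library 3, the fewest that any listed peak had. Libraries 3 and 6 had the most Tnf reads for their depth, with 60.2 and 67.3 reads per 100000 reads in filtered peaks, against 12.1 in library 1, 3.42 in library 2, 13.3 in library 4 and 4.43 in library 5.

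**Figure D1:**
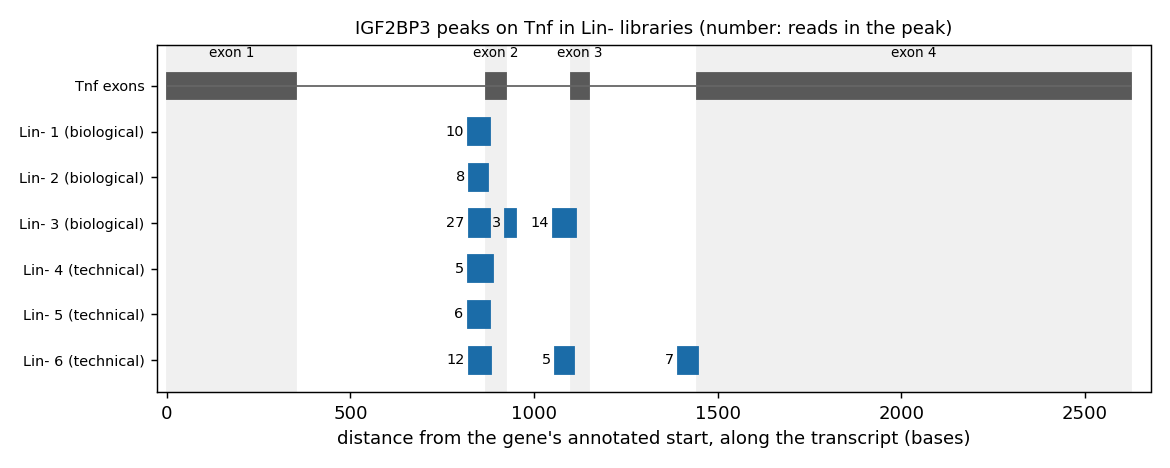
Tnf peaks in the 6 Lin- libraries along the gene, with the x axis giving the distance in bases from the annotated gene start along the transcript. Dark boxes are the 4 exons of Tnf, blue boxes are filtered peaks, and the number left of a peak is the reads in it; all 6 libraries have a peak across the start of exon 2, and libraries 3 and 6 have others.

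Spanning a border was frequent in Lin- cells, so the 4 of 4 Tnf regions have to be read against that. Of all Lin- merged regions 45.7% spanned a border and 33.1% spanned a 3′ splice site. In the CD11b+ cells the shares were 10.3% and 5.94%. Of 6511 genes with a Lin- region and at least 3 annotated 3′ splice sites, 19 (0.292%) had a region across every one of them. Tnf was among these only with the intron 3 region, which came from technical library 6 alone, and the biological libraries spanned 2 of its 3 sites. This count was chosen after the Tnf values were seen, and long genes need more regions to reach it. In the RNA, all 3 introns of Tnf ended in AG. The last 20 intron bases printed above were 70%, 85% and 85% C or T for introns 1, 2 and 3. No values of other introns are given, for the AG ends or for the last 20 bases, so these values have nothing to be read against. Over the whole regions the share of C and T was 53.7% at the end of intron 3, 64.6% at the end of intron 2, 66.7% at the start of intron 2 and 65.2% at the end of intron 1, beside a median of 56% (quartiles 48.0% and 63.4%) over 14333 Lin- regions of 30 to 69 bases. No Tnf peak lay in the 3′UTR, which is 764 bases long in that transcript and holds the pentamer ATTTA, the core of AU-rich elements, 8 times.

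Nlrp3 had fewer reads per peak and its peaks were spread over the gene. Biological library 1 had a peak of 11 reads in intron 6 at chr11:59555423-59555547, whose nearer end lies 200 bases before the border with exon 7, and a peak of 6 reads in the 3′UTR at chr11:59566546-59566593. Biological library 2 had a peak of 4 reads at chr11:59551947-59551996, just inside intron 6. Technical library 3 had a peak of 5 reads at chr11:59551940-59551983 that overlapped it and reached 2 bases into exon 6, and technical library 4 a peak of 3 reads in intron 7 at chr11:59557513-59557550. The site at the start of intron 6 was thus the only one on Nlrp3 found in more than 1 library, and no site was common to both biological libraries. Their deposited peak p-values ranged from 0.000104 to 0.041, close to the authors' limit of 0.05 at the upper end, and those of the intron 1 site of Tnf from 7.79e-27 to 0.00256.

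**Figure D2:**
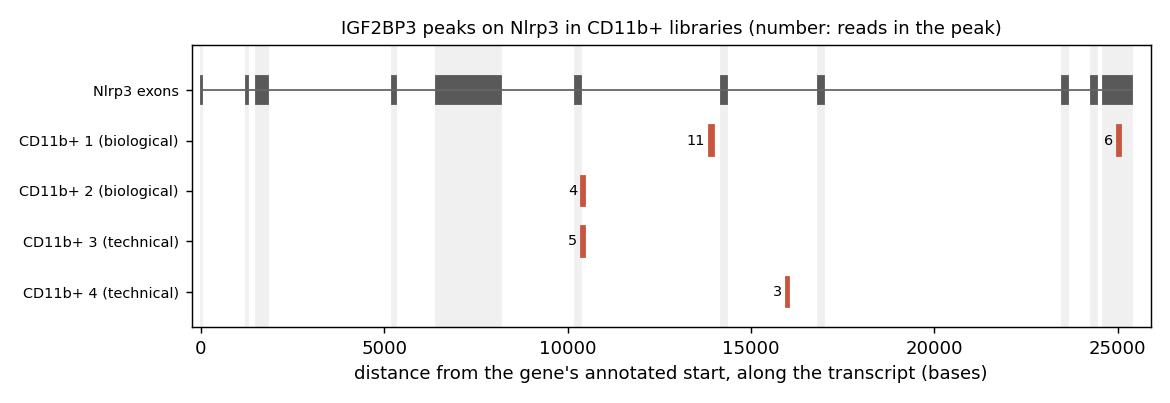
Nlrp3 peaks in the 4 CD11b+ libraries along the gene, with the x axis giving the distance in bases from the annotated gene start along the transcript. Dark boxes are the 11 exons of Nlrp3, red boxes are filtered peaks, and the number left of a peak is the reads in it; the 5 peaks fall at 4 places, and libraries 2 and 3 share the one next to exon 6.

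The sequences under the Nlrp3 peaks were of unlike composition. C and T made up 43.9% of the region at the start of intron 6, 16.0% of the intron 6 region upstream of exon 7, 100% of the intron 7 region and 91.7% of the 3′UTR region. The median over 13380 CD11b+ regions of 38 to 125 bases was 47.1%, with quartiles of 35.5% and 54.4%. The intron 6 region upstream of exon 7 held ACACAC or CACACA on the RNA strand, which 19.8% of those CD11b+ regions also did. The region at the start of intron 6 and the Casp1 region held the complementary repeat, GTGTGT or TGTGTG, which was searched after the sequences were seen and which 27.1% of the CD11b+ regions held. None of the 4 Tnf regions held either repeat, beside 7.08% and 8.42% of Lin- regions of the same lengths. No region of any of the 10 genes held ATTTA or GGAC, the former found in 3.36% of such Lin- and 2.29% of such CD11b+ regions and the latter in 10.7% and 10.8%. Each motif was searched on the RNA strand only, and both repeats can overlap themselves.

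Casp1 had 1 peak of 5 reads, in technical CD11b+ library 3, at chr9:5306820-5306870. It lies in intron 9, starting 46 bases after exon 9. Neither biological CD11b+ library had a peak on Casp1, so this call has no biological replicate.

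**Figure D3:**
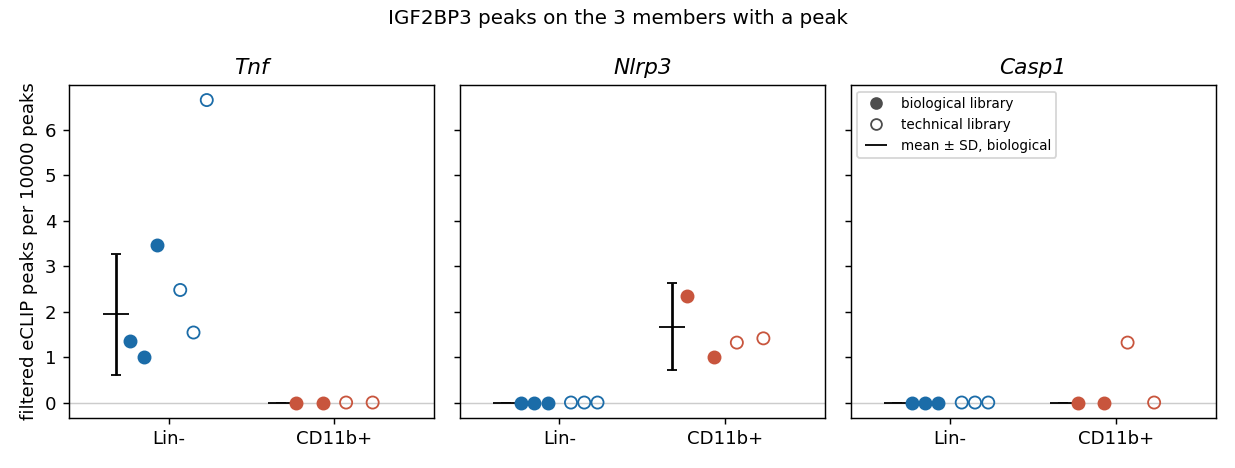
Filtered IGF2BP3 peaks per 10000 filtered peaks of the library (y axis) on Tnf, Nlrp3 and Casp1, by cell type (x axis). Filled points are biological libraries, open points technical libraries, and the bars give the mean ± SD of the biological libraries; Tnf is above 0 in Lin- libraries only, Nlrp3 in CD11b+ libraries only, and Casp1 in 1 technical CD11b+ library.

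For the comparison of cell types, peaks per gene were scaled to 10000 filtered peaks of the library. Tnf had 1.36, 0.996 and 3.45 peaks per 10000 in the biological Lin- libraries 1, 2 and 3, and 0 in both biological CD11b+ libraries. The groups did not overlap, at a mean of 1.94 ± 1.33 (SD, n = 3) against 0 (n = 2). The difference had p = 0.2 in an exact two-sided permutation test, and an adjusted p of 0.78 (Benjamini-Hochberg over 9290 genes, exact permutation test). Without Lin- library 3 the difference (CD11b+ minus Lin-) went from -1.94 to -1.18 peaks per 10000. Nlrp3 had 2.35 and 0.995 peaks per 10000 in the biological CD11b+ libraries 1 and 2 and 0 in the 3 biological Lin- libraries. Its mean was 1.67 ± 0.956 (SD, n = 2) against 0 (n = 3), with p = 0.1 in the exact permutation test and an adjusted p of 0.70 by the same exact test. Without CD11b+ library 1 the difference was 0.995.

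The design allows 10 splits of 5 libraries, so 0.1 is the smallest p it can give and no gene could pass 0.05: 0 genes did by unadjusted or adjusted p. Of the 9290 genes with a peak in a biological library, 9.34% did not overlap with the higher rate in Lin- cells and 10.6% with the higher rate in CD11b+ cells. Of the 10 genes only 2 had a peak in a biological library and could enter this count. Tnf did not overlap in the first direction and Nlrp3 in the second, and 2 genes are too few to be set against those shares. Both rest on 0 against 1 to 3 peaks per library. A list of peaks holds only what passed the peak caller, so a 0 means that no peak was listed at this depth and not that the RNA was unbound.

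Neither call came from the input filter. On Tnf, Nlrp3 and Casp1 the numbers of peaks before and after the filter were equal in each of the 10 libraries, and no gene of the 10 had a peak in any smInput library. The smInput lists are short, with at most 1885 peaks, and per the file headers they came from another deduplication and peak calling setting than the eCLIP lists.

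Most genes without a peak were of low level. Levels are the authors' mean normalized counts, divided here by the kb of merged exons so that genes can be compared; the tables were normalized separately, and no spread between libraries is given, so neighbours in the order cannot be told apart. In Lin- cells the order by mean normalized count per kb was Casp1 at 352, Nlrp3 at 336 and Tnf at 136, followed by Il10 at 55.4, Il18 at 43.2, Il1b at 25.2, Il1rn at 15.9, Ptgs2 at 9.47, Il6 at 8.49 and Il1a at 7.70. The median over all genes of that table was 35.2 per kb. In CD11b+ cells the order was Casp1 at 353, Il1rn at 283, Nlrp3 at 121, Tnf at 88.1, Il1b at 35.6, Il10 at 17.8 and Il18 at 13.4 per kb, with a table median of 30.0. Ptgs2 at 0.543, Il6 at 0.203 and Il1a at 0.171 per kb were close to 0 there. In bulk samples, fewer cells of a type and less RNA per cell cannot be told apart.

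By rank within each table, 5 of the 10 genes were above percentile 50 in each cell type, and the median percentile was 49.6 in Lin- and 48.6 in CD11b+ cells. Il1rn, the receptor antagonist, stood at percentile 43.9 in Lin- and 78.5 in CD11b+ cells. Ptgs2, Il6 and Il1a stood at 39.5, 38.5 and 37.7 in Lin- and at 12.2, 4.75 and 3.77 in CD11b+ cells. Casp1 and Tnf kept similar ranks, at 76.0 and 62.5 in Lin- and 81.6 and 61.4 in CD11b+ cells. Nlrp3 ranked at 75.3 in Lin- cells, where it had no peak, and at 65.7 in CD11b+ cells, where every library had one. These ranks come from means over wild-type and I3KO libraries together, while eCLIP was made from wild-type cells.

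**Figure D4:**
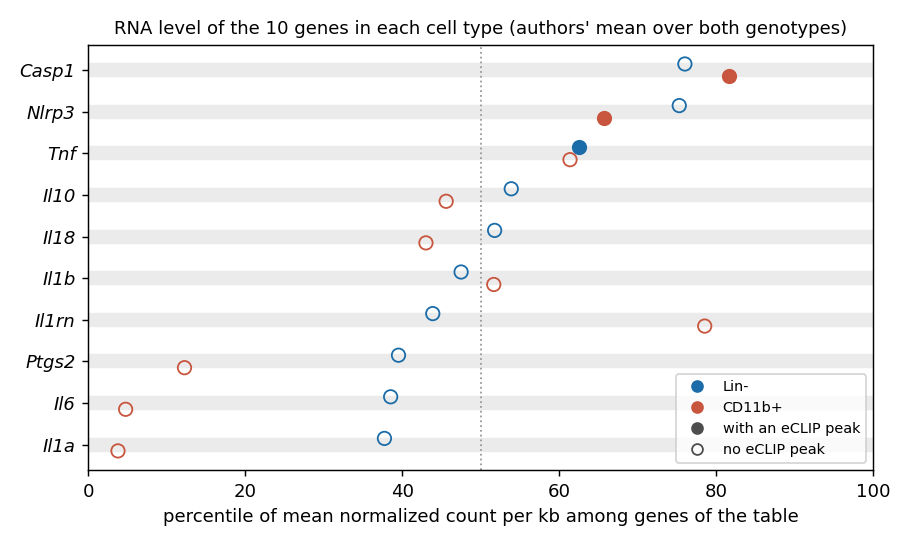
Rank of each of the 10 genes by mean normalized count per kb of exon (x axis, percentile among all genes of the same table; dotted line at 50) in Lin- (blue) and CD11b+ (red) cells. Filled points had an eCLIP peak in at least 1 library of that cell type; Nlrp3 is filled only in CD11b+ cells, where it ranks lower, and Il1rn has no peak at percentile 78.5.

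Binding was set beside level over all genes. In Lin- cells 26.5% of the genes in the table had a peak in at least 1 library and 3.16% in every library, and 1 of the 10 genes, Tnf, had either. In CD11b+ cells 25.6% had a peak in at least 1 library and 6.32% in every library; 2 of the 10, Nlrp3 and Casp1, had the first and Nlrp3 the second. The share of genes with a peak rose with level. Among Lin- genes with a mean of 10 to 100, where 7 of the 10 genes fell and none was bound, 7.02% were bound. Among those of 100 to 1000, which held Tnf and Casp1, 25.2% were bound and 0.804% in every library. Among the 6326 genes of 1000 or more, 76.5% were bound, and Nlrp3, at a mean of 1363, was not. In CD11b+ cells Il1rn, Tnf, Nlrp3 and Casp1 all fell between 100 and 1000, where 35.0% of genes were bound and 4.61% in every library; Nlrp3 and Casp1 were bound and Il1rn and Tnf, at means of 765 and 144, were not.

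Introns and 3′UTR motifs of the 10 genes were not used in the choice by symbol. Every one is spliced, with 3 to 10 introns, so that each offered 3′ splice sites. In the first-numbered GENCODE transcript of each gene, ATTTA occurred 14 times in the 3′UTR of Ptgs2, 8 times in that of Tnf, 6 in Il6, 6 in Il10, 5 in Nlrp3, 4 in Il1b, 3 in Il1a and 1 in Il18, and not in those of Il1rn and Casp1. These 3′UTRs ran from 88 bases in Casp1 to 2445 in Ptgs2. Neither the introns nor the ATTTA counts were set beside those of other genes. The only peak of the 10 genes in a 3′UTR was that of Nlrp3 in CD11b+ library 1. By the middle of the region, all 4 Lin- regions (100%, 95% Wilson interval 51.0% to 100%) and 4 of the 5 CD11b+ regions (80.0%, interval 37.6% to 96.4%) were intronic, beside 78.6% of all Lin- and 84.5% of all CD11b+ regions. These intervals cover counting error only and treat regions as independent. All 4 Lin- regions lay on Tnf and 4 of the 5 CD11b+ regions on Nlrp3, so the intervals do not describe the 10 genes as a set.

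A list of 53 further genes of the pathway held receptors, other inflammasome genes, prostaglandin enzymes, adaptors with NF-kB factors, and regulators of cytokine mRNA decay; 52 were in the tables. A peak was found on 34 of the 52 in Lin- cells and on 40 in CD11b+ cells, beside 26.5% and 25.6% of all genes, and 9 and 19 of them had one in every library, beside 3.16% and 6.32%. These genes were at higher levels than most, with a median percentile of 76.4 in Lin- and 78.6 in CD11b+ cells. At means of 1000 or more, 29 of 34 listed genes were bound in Lin- cells, where 76.5% of all such genes were, and 25 of 28 in CD11b+ cells, where 68.4% were. At means of 100 to 1000, 5 of 15 and 14 of 22 were bound, beside 25.2% and 35.0%. The most regions were on Zfp36l2, a ZFP36-family protein that promotes decay of AU-rich mRNAs, with 16 in Lin- and 8 in CD11b+ cells. After it came Tnfrsf1b, a TNF receptor, with 6 and 8, the kinase Ikbkb, which activates NF-kB, with 6 and 7, and the RNA binding protein Tia1 with 9 and 4. Il10rb, a subunit of the IL-10 receptor, had 6 and 6 regions, the AU-rich element binding protein Khsrp 9 and 3, and the IL-6 receptor gene Il6ra 6 and 5. Nfkbia, the inhibitor of NF-kB, had 6 and 5, its relative Nfkbiz 6 and 4, and the adaptor Tab2 6 and 5.

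By class, bound genes in Lin- and CD11b+ cells numbered 6 and 8 of 12 receptors and antagonists and 3 and 7 of 10 inflammasome genes. They numbered 3 and 3 of 5 prostaglandin genes, 13 and 14 of 15 adaptors and NF-kB genes, and 9 and 8 of 10 decay regulators. Of all genes, 26.5% in Lin- and 25.6% in CD11b+ cells were bound. The share of bound genes rose with level, and the classes differed in level. In Lin- and CD11b+ cells the median percentiles by level were 74.7 and 74.8 for receptors and antagonists and 72.4 and 79.7 for inflammasome genes. They were 82.6 and 73.6 for prostaglandin genes, 80.7 and 82.7 for adaptors and NF-kB genes, and 78.5 and 74.3 for decay regulators. No class was set beside genes of its own level, and nothing particular to a class was tested. Of the 41 listed genes with a peak in a biological library, 3 did not overlap with the higher rate in Lin- cells, Elavl1, Nfkbiz and Ptges3, and 6 with the higher rate in CD11b+ cells, beside the 9.34% and 10.6% of all genes above. The 6 were Tnfrsf1a, Mefv, Gsdmd, Nek7, Irak4 and Ptges. Apart from Nfkbiz, these genes are named here after their values were seen. Of the 10 inflammasome genes listed, 5 had a peak in a biological library, and Mefv, Gsdmd and Nek7 were the ones that did not overlap. Aim2, a sensor of DNA, averaged 1.58 peaks per 10000 in CD11b+ and 1.5 in Lin- biological libraries (exact permutation p = 0.8), and Casp8 2.26 and 1.05 (exact permutation p = 0.5). Pycard, Casp4 and Nlrp1a had no peak in any library. Mefv, which encodes the sensor pyrin, averaged 5.42 peaks per 10000 in CD11b+ and 0 in Lin- biological libraries, Gsdmd 1.58 and 0, and Nek7 1.08 and 0. Each had p = 0.1 in the exact permutation test and an adjusted p of 0.70 (Benjamini-Hochberg, exact permutation test). With peaks in both CD11b+ and in no Lin- biological library this p can only be 0.1, so it repeats the choice of these genes. Unlike Nlrp3 and Nek7, Mefv and Gsdmd ranked higher in the CD11b+ table, at percentiles 92.6 and 95.9 against 59.3 and 90.5 in the Lin- table; Nek7 was at 71.2 against 75.4. The part of level in these peak rates was not tested.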

How the data were processed

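Peaks and mean levels were analysed for 32 libraries of mouse cells. Per the study's methods, RNA-seq was single-end and strand-specific, and the submitters' processing notes name STAR 2.5.3a, Bowtie2, DESeq2 and the build mm10. eCLIP peaks were called by the authors with CLIPper in each library and filtered against smInput and at a p-value below 0.05. The last number in a deposited peak name was read as the reads in the peak; its lowest value is 3. The RNA tables deposited by the authors give a mean normalized signal per gene over both genotypes (DESeq2's mean of normalized counts), and their further columns hold the authors' fold changes, errors and p-values for I3KO against wild type and peak flags, which were not used here, so that the genotype comparison and the knockout check are not reported.

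From these files, peaks were counted per gene and library, scaled to 10000 filtered peaks, and merged on a strand where at least 1 base overlapped. Regions were placed by their middle in GENCODE M21 (basic set) and read from GRCm38. Biological libraries of the cell types were compared with an exact two-sided permutation test of the difference in means for all genes with a peak, with Benjamini-Hochberg adjustment; the code was tested on simulated data. Nothing states whether biological libraries came from separate animals, so the p-values apply to these libraries only. Each permutation p is the share of possible splits whose difference in means, in either direction, was at least as large. The members and lists were chosen with earlier results of these data known. The genes named were the 10 members and, of the pathway list, the 10 with the most merged regions among those bound in at least 2 biological libraries of a cell type; others are said to be named after their values were seen. Python 3 with pandas, NumPy and SciPy was used.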

Additional observations from a re-analysis of the deposited data

Results flagged for a closer look

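Casp1 in the CD11b+ eCLIP libraries was set apart because 1 of its 4 values stood far from the others: technical library 3 had 1.32 peaks per 10000 filtered peaks and the other libraries had 0. With counts this low a lone peak always gives such a gap, so a chance rate of about 1 in 20 groups of values does not hold here. In all, 9 groups were examined.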

How the results depend on the processing

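Of 75 alternative values for the 13 results other than 0, 58 kept their direction or stayed within the margin set for them and none reversed. The other 9 results were 0, nearly all fixed by the absence of peaks, and say nothing of stability. The number of bound genes in Lin- cells was 1 under every alternative. In CD11b+ cells it fell from 2 to 1 with biological libraries alone, to 1 when a peak was required in at least 2 biological libraries and to 1 for peaks with a deposited value below 0.001, since Casp1 was then lost; with technical libraries left out and either biological library dropped as well it was also 1. Over all genes, 400 instead of 988 did not overlap with the higher rate in CD11b+ cells, and 230 instead of 868 with the higher rate in Lin- cells, once technical libraries entered; leaving out 1 library gave 1158 to 2489 and 992 to 1417, since fewer libraries overlap less often. Counting any exonic base as exonic took the intronic share of the Lin- regions from 100% to 0%, because every Tnf region crosses a border, and leaving out a biological CD11b+ library, technical ones kept, gave 80.0% to 100%. Among genes with a mean of at least 10, 2 instead of 5 members were above the middle rank in Lin- cells and 2 instead of 5 in CD11b+ cells. The replicate block, pairing replicates 1 and 2 of both cell types by number, gave a CD11b+ minus Lin- difference of -1.18 for Tnf and 1.67 for Nlrp3, with p = 0.5 in an exact sign-flip test, the smallest it allows; the numbers only share a name, with correlations of deviations of -0.18 and -0.10. Exact tests over 5 libraries limit every p to 0.1 or more. Alternatives that counted reads, required 5 reads, left out Lin- library 5 or used the comprehensive GENCODE set were chosen after seeing the data.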
